A study of Homo sapiens with 12 samples.

Results

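The transcripts of the enzymes that write and erase histone marks were followed in SU-DHL-4, an established cell line of diffuse large B-cell lymphoma (DLBCL). Members were the rows of the count table whose symbols belong to the KMT2 to KMT5, KDM, KAT, HDAC, SETD, SIRT, NSD, SUV39H and EHMT families or are EZH1 or EZH2, together with CREBBP, EP300, EED, SUZ12 and DOT1L. Of 92 such rows, 7 pseudogenes, 7 antisense genes, 1 gene of the Y chromosome and 2 genes with fewer than 10 counts over all libraries (KDM4E and KDM4F) were left out. The remaining 75 members are part of a table of 46863 genes. Protein-coding genes make up 73 of them. KDM7A-DT and KDM2B-DT are noncoding divergent transcripts that start near KDM7A and KDM2B. The cells were exposed for 72 h to the vehicle DMSO, to 1 µM Ento (entospletinib, an inhibitor of the B-cell receptor kinase SYK), to 0.01 µM AZD (AZD5153, a bivalent inhibitor of BET bromodomain proteins) or to both agents at these concentrations (Ento+AZD). Each group held 3 libraries with the replicate numbers 1 to 3, all from this single cell line, and no normal B cells were included. The study describes its samples in general as biologically independent, and the labels of these libraries do not say whether the replicates were separate cultures.

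Histone lysines carry acetyl and methyl groups that acetyltransferases and methyltransferases add and that deacetylases and demethylases remove. BET proteins bind acetylated lysines and so read the product of the acetyltransferases, whereas the enzymes themselves are not the target of either agent. In germinal-centre B cells, from which DLBCL of this kind derives, the H3K27 methyltransferase EZH2 restrains differentiation genes, and CREBBP, EP300 and KMT2D maintain enhancers. Genes of these last enzymes are often mutated in DLBCL, a background that transcript counts do not address.

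Library totals lay between 18121993 and 24675830 counts, so that 1 count equalled 0.0393 to 0.0564 CPM, the count scaled to the library size after TMM normalization. The B cell markers MS4A1, CD79A, CD79B, PAX5 and CD22 were present in every library, from 236 CPM for CD79B to 3659 CPM for MS4A1, while 6 T cell and myeloid markers summed to at most 2.23 CPM and CD2, CD3D and FCGR3A had no count in any library. Each difference below is a log2 fold change with its standard error from edgeR's quasi-likelihood test, in 1 model of the 12 libraries with terms for exposure and replicate number. Adjusted p denotes the Benjamini-Hochberg value over the 16835 genes that passed the filter on low counts, and a member was called higher or lower at an adjusted p under 0.05. All 73 protein-coding members passed that filter, and the noncoding KDM7A-DT (76 counts over all libraries) and KDM2B-DT (11 counts, just inside the minimum of 10) did not. In bulk RNA, a change in a fraction of the cells and a smaller change in every cell cannot be told apart.

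Members differed widely in level in DMSO-treated cells. Per kilobase of the canonical transcript of each gene, the class I deacetylase HDAC1 stood highest, with 185 ± 9.49 CPM per kb (SD, n = 3). Its lowest library lay above the highest library of every other member. EZH2 followed with 64.4 ± 13.8, the H3K4 demethylase KDM1A with 56.3 ± 6.46, the class IIa deacetylase HDAC7 with 46.9 ± 3.98 and the H3K36 methyltransferase NSD2 with 44.3 ± 9.82 CPM per kb (SD, n = 3 each). Neighbours in this order of 4 had overlapping ranges, whereas EZH2 (lowest library 54.7) lay above HDAC7 (highest library 51.4) in every library. Over the ranking of 75 members, 9 of 74 neighbouring pairs did not overlap. The median member had 14.5 CPM per kb. At the lower end lay HDAC11, the only class IV deacetylase, with 0.120 ± 0.0481, and the H3K4 demethylase KDM5B with 0.127 ± 0.0143 CPM per kb (SD, n = 3 each). HDAC2, the close relative of HDAC1, reached 13.3 ± 1.19 CPM per kb (SD, n = 3) when its counts were divided by a canonical transcript of 9737 bases, against 2118 bases for HDAC1.

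**Figure D1:**
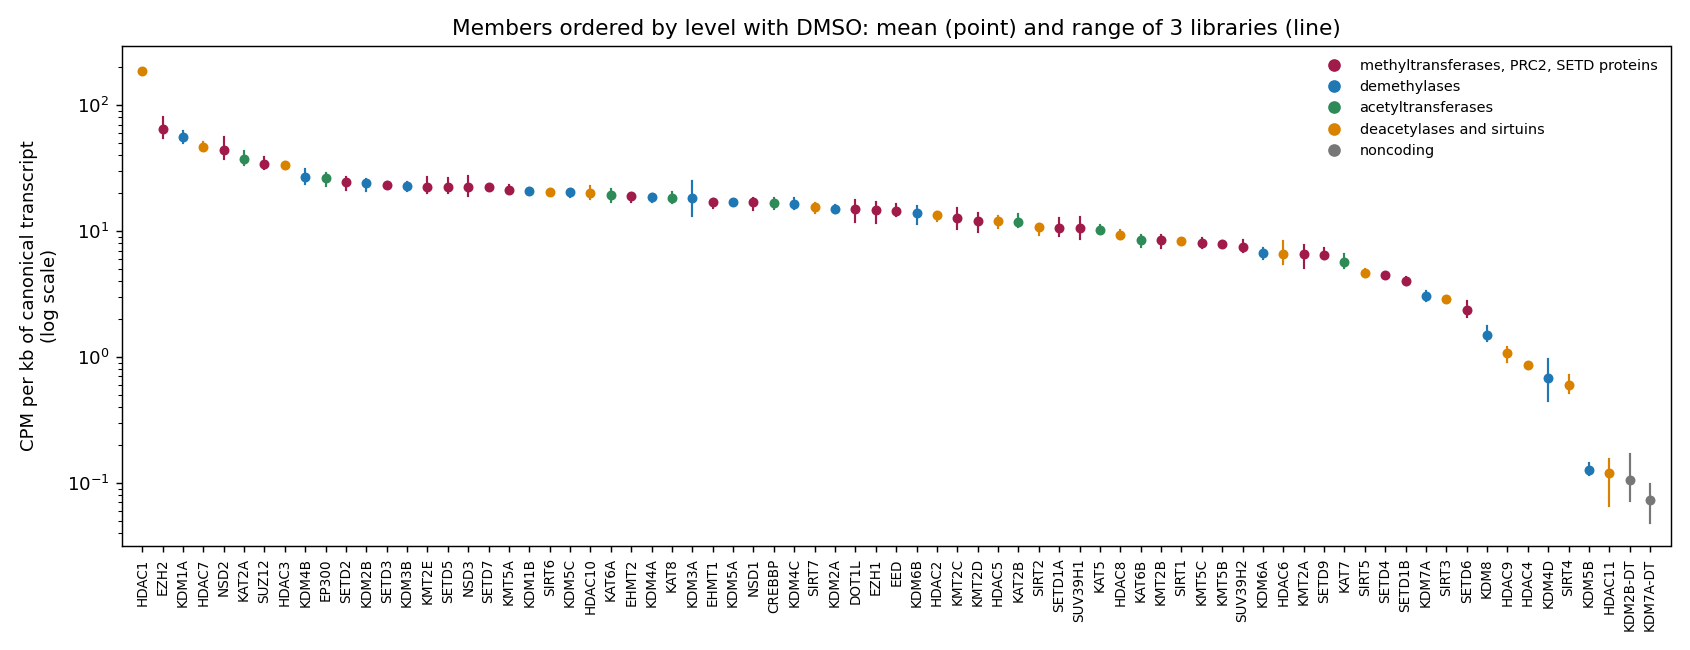
Level of the 75 members with DMSO, in CPM per kb of canonical transcript on a log scale, with the mean as a point and the range of the 3 libraries as a line. HDAC1 lies alone at the top with a mean of 185, and KDM5B, HDAC11 and the 2 noncoding transcripts lie at the bottom, below 0.2.

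Ento alone left most of the group uncalled. The test called 3 of 73 members higher (4.66% of all genes tested were called higher) and 1 lower (3.66% of all genes). The higher members were HDAC1, HDAC7 and the H3K9 methyltransferase EHMT1, and the lower one was HDAC9. With AZD, 5 members were called higher, against 9.57% of all genes, and 8 lower, against 12.7%. After Ento+AZD exposure 13 members (17.8%) were called higher and 16 (21.9%) lower, where 19.2% and 20.8% of all genes were called. These shares lie near or below the background, so the numbers of calls do not set the enzymes apart from other genes. Changes were small as well. The median absolute log2 fold change of the members with Ento+AZD was 0.20, compared with 0.29 over all genes, and it was 0.10 against 0.17 with Ento and 0.12 against 0.22 with AZD. Members and all genes were not matched for expression level, so these medians do not show that the enzymes respond less than other genes. A change of more than 2-fold was called with Ento+AZD for KDM5B upward (3.43% of all genes) and for NSD2 and HDAC9 downward (4.89%), and with Ento for HDAC9 downward (0.535%). The summed level of all 75 members was 6761 ± 599 CPM with DMSO and 6773 ± 75.3 CPM with Ento+AZD (SD, n = 3 each).

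**Figure D2:**
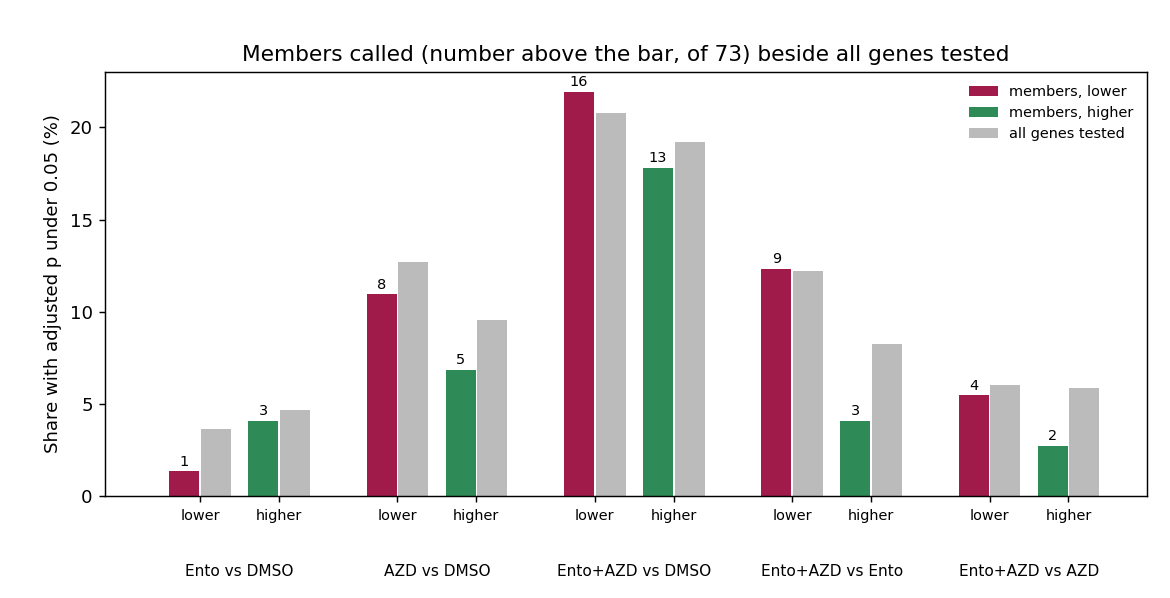
Share of the 73 protein-coding members (coloured, with the number of members above each bar) and of all 16835 genes tested (grey) with an adjusted p under 0.05, by direction and comparison. The 16 members lower with Ento+AZD are 21.9% of the members, beside 20.8% of all genes.

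The calls depended on the replicate number in the model. Without it, 8 members were still called with Ento+AZD (NSD2, SUV39H1, KMT5A, KMT5C, EED and HDAC9 lower, HDAC1 and SIRT7 higher), and none with either single agent, where edgeR gave 7 members an unadjusted p under 0.05 with Ento and 13 with AZD. All other calls below therefore rest on comparing libraries of the same replicate number. Shares over all genes are not given for the fit without it, so its 8 calls do not set these members apart from other genes. When each library was left out in turn, 14 of the 29 Ento+AZD calls, 3 of the 13 AZD calls and 1 of the 4 Ento calls passed every time. Losses are given beside the members.

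Genes of proliferation moved with several of the members described next. All 18 proliferation genes on the list were lower with Ento+AZD (20.8% of all genes) and 13 with AZD (12.7%). None was called for Ento (3.66% of all genes were called lower). The study had already reported lower replication and cell-cycle genes in these data with Ento+AZD. CDK1 and CCNA2 had log2 fold changes of −1.67 (adjusted p = 1.37e-05) and −1.87 (adjusted p = 2.38e-05), and the median over the list was −1.38. The summed level of the 18 genes was 4013, 4063 and 6012 CPM in the DMSO libraries, 4613, 2265 and 5696 CPM with Ento, 3644, 1876 and 3687 CPM with AZD and 2182, 914 and 2883 CPM with Ento+AZD. Replicate 2 was thus lowest in each exposed group, and the same held for NSD2, SUV39H1, EZH2, KMT5A and HDAC2. The part of these genes in the differences of the members was not tested.

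Among the methyltransferases of H3K36 and H3K79, 3 of 5 members were lower with Ento+AZD (20.8% of all genes) and 1 was higher (19.2%). NSD2, which places the dimethyl mark on H3K36 (chr4:1871393-1982207, plus strand, GENCODE v44 on GRCh38), had 284, 300 and 420 CPM in the DMSO libraries, in the order of the replicate numbers. It had 324, 177 and 373 CPM with Ento, 258, 143 and 268 CPM with AZD, and 170, 107 and 209 CPM with Ento+AZD. Every AZD and every Ento+AZD library thus lay below every DMSO library, and the Ento libraries overlapped with them. The log2 fold change was −1.10 ± 0.14 (SE) with Ento+AZD (adjusted p = 4.16e-05), −0.64 ± 0.14 with AZD (adjusted p = 0.00565) and −0.27 ± 0.14 with Ento (adjusted p = 0.246). NSD1 and NSD3, its paralogs, were lower with Ento+AZD by smaller amounts, −0.31 ± 0.10 (adjusted p = 0.0234) and −0.27 ± 0.09 (adjusted p = 0.0338). Both calls were lost without Ento+AZD replicate 1 or 3 or DMSO replicate 3, and that of NSD1 also without DMSO replicate 2, with adjusted p up to 0.139 for NSD1 and 0.210 for NSD3. Exons of DDHD2 overlap NSD3 on the opposite strand, and DDHD2, with 14906 counts over all libraries, was called lower as well (−0.47 with Ento+AZD, adjusted p = 0.000439). Reads of these genes may be shared in unstranded counting, so the call of NSD3 is uncertain. SETD2, which deposits the trimethyl mark on H3K36, went the other way. Its libraries held 183, 229 and 217 CPM with DMSO, 241, 246 and 211 CPM with Ento, 242, 256 and 259 CPM with AZD and 256, 256 and 265 CPM with Ento+AZD. SETD2 rose by 0.31 ± 0.08 on the log2 scale with Ento+AZD (adjusted p = 0.00947) and by 0.27 ± 0.08 with AZD (adjusted p = 0.0332). Without DMSO replicate 1 or Ento+AZD replicate 3 the first call was lost, with adjusted p up to 0.0536, and the second was lost without DMSO replicate 1 or any one AZD library, with adjusted p up to 0.151. The H3K79 methyltransferase DOT1L was not called, with −0.24 ± 0.09 (adjusted p = 0.0543).

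The 4 PRC2 members were all called with Ento+AZD, where 19.2% of all genes were called higher and 20.8% lower. This complex methylates H3K27 and contains either EZH2 or EZH1 as its catalytic subunit, with EED and SUZ12 as core partners. EZH2 (chr7:148807257-148884321, minus strand) had 155, 145 and 213 CPM with DMSO, 167, 116 and 204 CPM with Ento, 162, 116 and 157 CPM with AZD and 130, 100 and 145 CPM with Ento+AZD. Every Ento+AZD library lay below every DMSO library, though only just, with 144.7 CPM in Ento+AZD replicate 3 and 145.3 CPM in DMSO replicate 2. EZH2 fell by 0.45 on the log2 scale (SE 0.09, adjusted p = 0.0018), EED by 0.38 (SE 0.09, adjusted p = 0.0059) and SUZ12 by 0.24 (SE 0.07, adjusted p = 0.0158). EZH1 instead rose by 0.29 ± 0.11 (adjusted p = 0.042), with 54.0 to 78.8 CPM in the DMSO libraries and 75.8 to 97.9 CPM with Ento+AZD, ranges that overlap. None of the 4 was called with a single agent. The EZH2 call passed without each library in turn, that of EED was lost without Ento+AZD replicate 3 (adjusted p = 0.0548) and that of SUZ12 without DMSO replicate 2 or Ento+AZD replicate 1 (adjusted p up to 0.0666). EZH1 was lost without any one of 7 libraries (DMSO replicates 1 and 2, Ento replicate 1, AZD replicate 2 and each Ento+AZD library), with adjusted p up to 0.195. The EZH1 call was also lost when libraries were scaled by total counts only.

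Promoters were searched for letters that E2F factors bind, because E2F motifs mark many genes of the S phase, and for the E-box bound by MYC and related factors. RefSeq windows of 300 bases (250 before and 50 after the start, GRCh38.p14) were given for 66 of the 73 members. On either strand, TTTCCCGC stood in 2 of the 15 lower members with a window, NSD2 and SUZ12, in none of 11 higher members and in 2 of 40 members not called, KDM1B and SIRT6. Of all genes with a window, 1.98% held it. TTTGGCGC stood in EZH2 alone, against 0.795% of all genes. The E-box CACGTG stood in NSD1 and EHMT2 (lower), in SETD6 (higher) and in 7 members not called, and in 8.77% of all genes. CACGTG reads alike on both strands, and no promoter of a called member held more than 1 of the 3 motifs. Stretches of 30 bases are shown for the E2F letters of the called members and for the E-box of a lower and a higher member, with the motif in capitals, 5′ to 3′ on the strand of the gene.
NSD2 (chr4:1871305-1871334, plus strand): cggcgcgcactTTTCCCGCggcttctgcga
SUZ12 (chr17:31936807-31936836, plus strand): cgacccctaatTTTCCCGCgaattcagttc
EZH2 (chr7:148884272-148884301, minus strand): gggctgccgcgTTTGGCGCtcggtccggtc
EHMT2 (chr6:31897710-31897739, minus strand): cctccctcgccCACGTGacccggggcggcc
SETD6 (chr16:58515440-58515469, plus strand): aaaacaggcacCACGTGgttccggcgccgg
The motif began 77 bases before the RefSeq start in NSD2, 189 before it in SUZ12 and 1 base after it in EZH2. These matches describe the sequence of the windows and were not tested for binding.

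The H3K9 methyltransferases fell with Ento+AZD in 3 of 4 members (20.8% of all genes were called lower). SUV39H1 (chrX:48695554-48709016, plus strand), which trimethylates H3K9 in heterochromatin, had 23.6, 27.5 and 35.4 CPM with DMSO, 26.4, 18.2 and 31.1 CPM with Ento, 20.3, 15.7 and 21.7 CPM with AZD and 17.8, 10.1 and 18.6 CPM with Ento+AZD. Its AZD and Ento+AZD libraries did not overlap with DMSO. The log2 fold changes were −0.92 ± 0.14 with Ento+AZD (adjusted p = 0.000225) and −0.59 ± 0.14 with AZD (adjusted p = 0.00971), the latter lost without AZD replicate 3 (adjusted p = 0.0691). Its paralog SUV39H2 had −0.26 ± 0.10 with Ento+AZD (adjusted p = 0.0491), a call lost without any one of 10 libraries, all but Ento replicate 3 and AZD replicate 3, with adjusted p up to 0.144, and with DESeq2. EHMT2 and EHMT1, also called G9a and GLP, form a dimer that dimethylates H3K9, and their transcripts differed. EHMT2 had 67.2, 80.2 and 78.9 CPM with DMSO, 72.8, 75.0 and 78.3 CPM with Ento, 58.4, 61.6 and 70.2 CPM with AZD and 60.8, 62.7 and 68.9 CPM with Ento+AZD. It was called lower with AZD (−0.25 ± 0.07, adjusted p = 0.0259) and Ento+AZD (−0.23 ± 0.07, adjusted p = 0.0215), and each call was lost without DMSO replicate 2 or any one library of that exposure, with adjusted p up to 0.128 and 0.0997. EHMT1 had 78.3, 89.6 and 92.2 CPM with DMSO, 103, 98.6 and 109 CPM with Ento, 93.0, 85.7 and 92.9 CPM with AZD and 98.7, 93.3 and 106 CPM with Ento+AZD. Every Ento library lay above every DMSO library, and the log2 fold change of 0.25 ± 0.07 was called with Ento (adjusted p = 0.0491). That call was lost without any one of 10 libraries, all but DMSO replicate 2 and Ento+AZD replicate 2, with adjusted p up to 0.188.

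Of the H4K20 methyltransferases, 2 of 3 were lower with AZD (12.7% of all genes) and with Ento+AZD (20.8%). KMT5A, the monomethyltransferase of H4K20 that is used in cell division (chr12:123384132-123409353, plus strand), had 56.4, 55.8 and 64.9 CPM with DMSO, 56.5, 46.2 and 63.7 CPM with Ento, 47.9, 43.5 and 50.9 CPM with AZD and 43.2, 37.2 and 45.1 CPM with Ento+AZD. It fell by 0.50 on the log2 scale with Ento+AZD (SE 0.08, adjusted p = 0.000246) and by 0.32 with AZD (SE 0.08, adjusted p = 0.0119), the latter lost without AZD replicate 3 (adjusted p = 0.0814). Its 3 listed pseudogene copies took reads too, with 6042 counts for KMT5AP1, 1838 for KMT5AP2 and 594 for KMT5AP3 over all libraries, so the level of KMT5A itself is uncertain. Summed with these copies, KMT5A had 96.3 ± 9.03 CPM with DMSO, 77.9 ± 6.48 CPM with AZD and 68.4 ± 8.71 CPM with Ento+AZD (SD, n = 3 each). KMT5C, which adds the further methyl groups, had 16.7, 18.3 and 20.3 CPM with DMSO, 15.9, 15.05 and 18.1 CPM with Ento, 13.4, 12.9 and 14.0 CPM with AZD and 14.3, 13.7 and 13.1 CPM with Ento+AZD. Both AZD and Ento+AZD libraries lay below all DMSO libraries, at −0.45 ± 0.10 (adjusted p = 0.00699) and −0.42 ± 0.10 (adjusted p = 0.00463). KMT5B, of the same activity as KMT5C, was at 0.10 ± 0.10 with Ento+AZD (adjusted p = 0.459).

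The KMT2 and SETD1 genes, listed here as the COMPASS family that methylates H3K4 at promoters and enhancers, held 7 members. With Ento+AZD, 3 were higher (19.2% of all genes) and 1 was lower (20.8%). SETD1B (0.35 ± 0.09, adjusted p = 0.00841), KMT2B (0.29 ± 0.08, adjusted p = 0.0123) and SETD1A (0.25 ± 0.09, adjusted p = 0.0419) were the higher ones. The call of SETD1B passed without each library in turn, that of KMT2B was lost without DMSO replicate 1 or Ento+AZD replicate 1 (adjusted p up to 0.0713) and that of SETD1A without any one of 8 libraries (DMSO replicates 1 and 3, each Ento library, AZD replicate 2, Ento+AZD replicates 1 and 3; adjusted p up to 0.198). Exons of IGFLR1 overlap KMT2B on the opposite strand. IGFLR1, with 1859 counts over all libraries, was called lower with Ento+AZD (−0.49, adjusted p = 0.0206). The lower one was KMT2E, which is listed here by its symbol only and has no known methyltransferase activity. It was lower with AZD (−0.34 ± 0.11, adjusted p = 0.0427) and Ento+AZD (−0.38 ± 0.11, adjusted p = 0.0145). The Ento+AZD call was lost without DMSO replicate 3 or Ento+AZD replicate 1 or 3 (adjusted p up to 0.0948), and the AZD call without any one of 7 libraries (DMSO replicates 2 and 3, Ento replicates 1 and 3, AZD replicates 2 and 3, Ento+AZD replicate 1; adjusted p up to 0.241). The enhancer enzyme KMT2D ranged from 204 to 288 CPM with DMSO and from 281 to 344 CPM with Ento+AZD and was not called (0.29 ± 0.12, adjusted p = 0.0563). Nor were KMT2A (0.04 ± 0.13) and KMT2C (0.24 ± 0.13).

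Among the other SETD proteins, SETD6 and SETD7 were called with AZD. SETD6, a methyltransferase known for its action on the NF-κB subunit RELA, had 13.5, 17.5 and 13.05 CPM with DMSO, 15.8, 20.2 and 15.3 CPM with Ento, 18.6, 20.6 and 22.3 CPM with AZD and 19.0, 19.8 and 20.5 CPM with Ento+AZD. All AZD and Ento+AZD libraries exceeded the DMSO libraries, with 0.49 ± 0.11 (adjusted p = 0.00802) and 0.44 ± 0.11 (adjusted p = 0.00703). The AZD call was lost without AZD replicate 3 (adjusted p = 0.0721). Exons of CNOT1 overlap SETD6 on the opposite strand. CNOT1 held 108840 counts over all libraries and had a log2 fold change of −0.01 with AZD (adjusted p = 0.97). SETD7, first described as an H3K4 monomethyltransferase, had 147, 159 and 148 CPM with DMSO, 161, 152 and 137 CPM with Ento, 172, 178 and 184 CPM with AZD and 160, 159 and 167 CPM with Ento+AZD. Only with AZD was it called, at 0.24 ± 0.08 (adjusted p = 0.0366), and that was lost without any one of 5 libraries (DMSO replicates 1 and 3, Ento replicate 2, AZD replicates 2 and 3; adjusted p up to 0.196). SETD3, SETD4, SETD5 and SETD9 were not called in any comparison with DMSO.

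**Figure D3:**
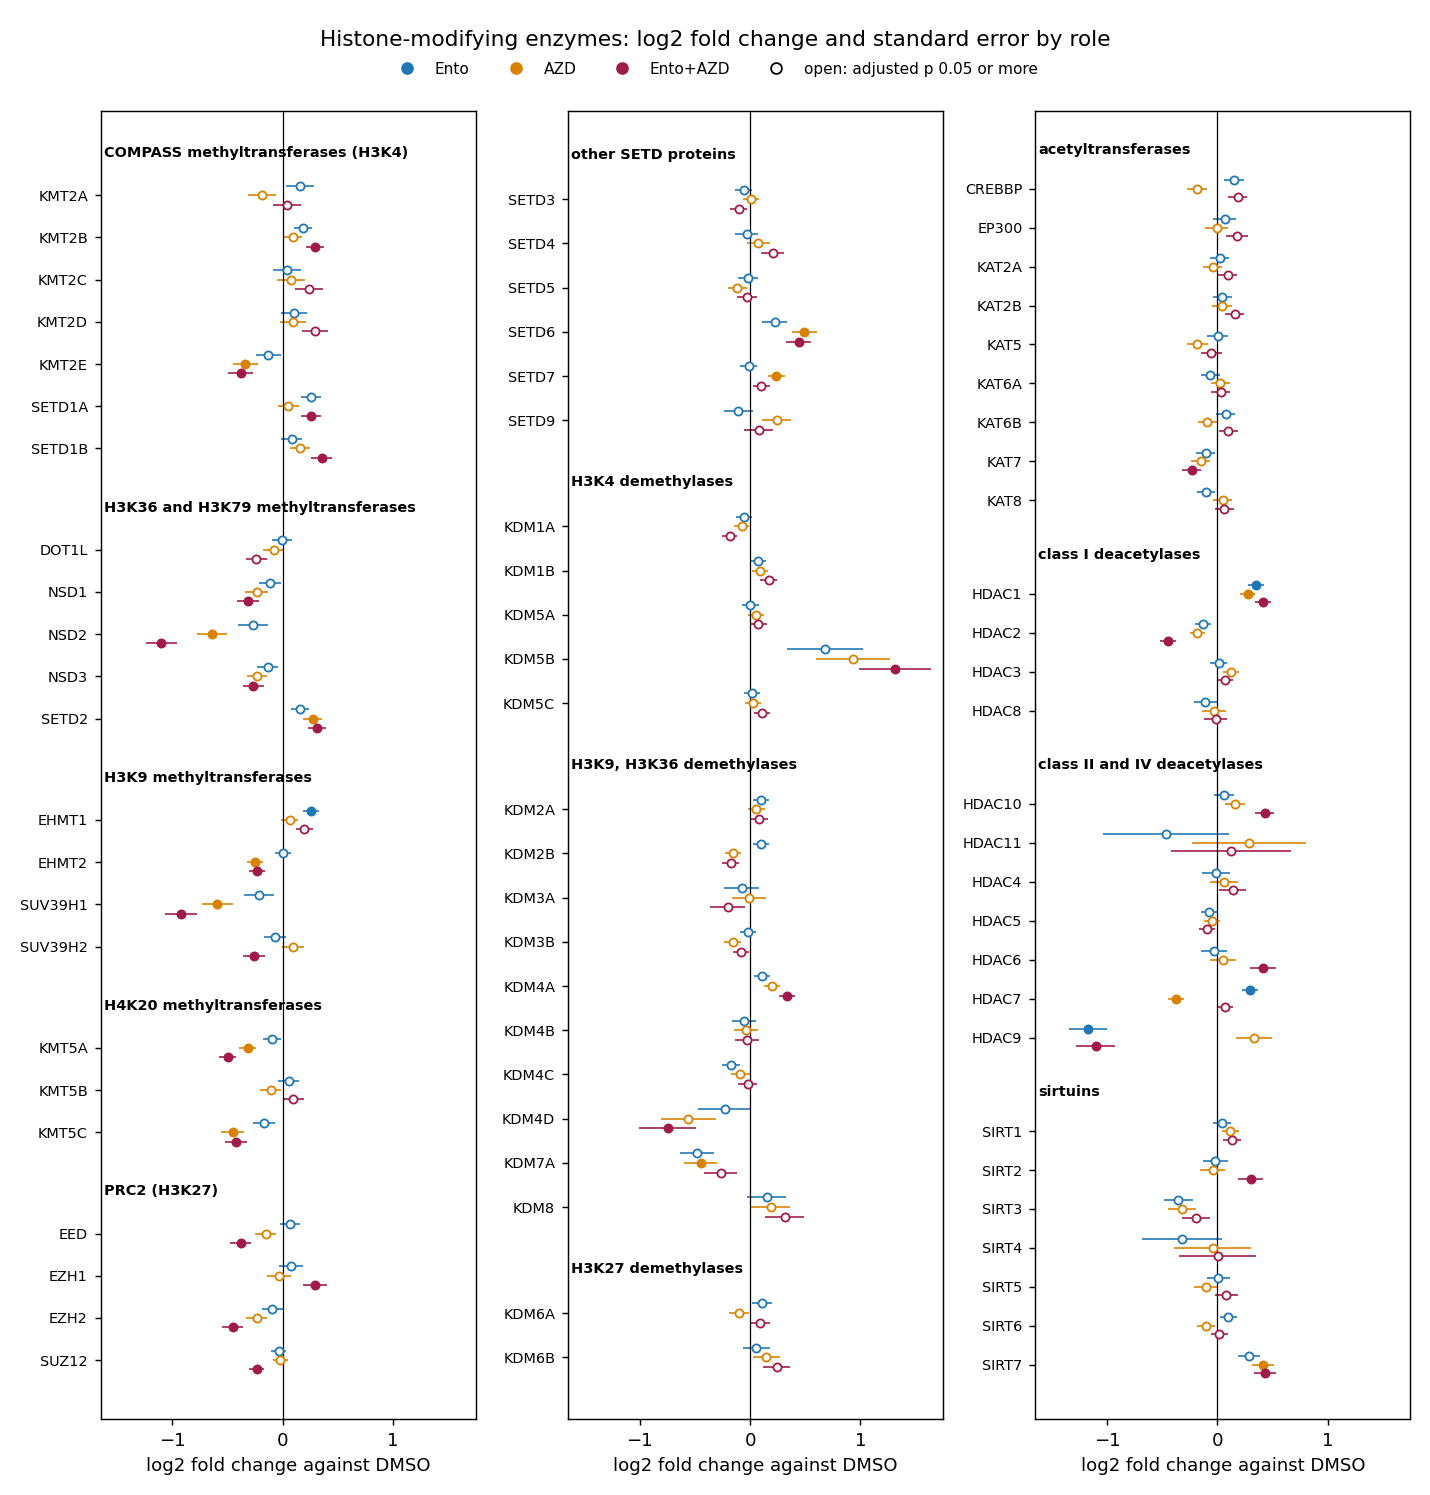
Log2 fold change against DMSO of the 73 protein-coding members, grouped by role, for Ento (blue), AZD (orange) and Ento+AZD (dark red), with standard errors as bars. Filled points have an adjusted p under 0.05, as for 29 members with Ento+AZD, and most points lie within 0.5 of 0. The 3 comparisons share the DMSO libraries.

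Of 17 demethylases, 2 were higher and 1 lower after Ento+AZD exposure, where 19.2% and 20.8% of all genes were called. KDM5B, an H3K4 demethylase with a low level in these cells, had 1.07, 1.33 and 1.14 CPM with DMSO, 1.39, 3.79 and 0.884 CPM with Ento, 1.35, 3.15 and 2.47 CPM with AZD and 2.93, 3.14 and 2.71 CPM with Ento+AZD. Every AZD and every Ento+AZD library lay above every DMSO library, though AZD replicate 1 only just (1.35 against 1.33 CPM in DMSO replicate 2). The Ento libraries overlapped with DMSO, and replicate 2 was highest in every group. KDM5B was not called with either single agent. KDM5B rose by 1.31 ± 0.33 on the log2 scale with Ento+AZD (adjusted p = 0.00594), on 27 to 29 counts per DMSO library and 48 to 66 counts per Ento+AZD library. KDM4A, which removes methyl groups from H3K9 and H3K36, had 84.7, 87.9 and 76.4 CPM with DMSO, 97.8, 96.4 and 75.0 CPM with Ento, 96.0, 101 and 88.1 CPM with AZD and 108, 109 and 97.6 CPM with Ento+AZD. It rose by 0.34 ± 0.07 with Ento+AZD (adjusted p = 0.00205) and lay at 0.20 ± 0.07 with AZD, short of a call (adjusted p = 0.0642). KDM4D was lower, at −0.74 ± 0.26 (adjusted p = 0.0337) on 21 to 72 counts per library of these 2 groups, and was lost without DMSO replicate 2 or 3 or Ento+AZD replicate 1 or 3 (adjusted p up to 0.214) and with DESeq2. KDM7A, a demethylase of H3K9 and H3K27, had 27.9 ± 2.64 CPM with DMSO, 20.3 ± 4.22 CPM with Ento, 20.6 ± 1.23 CPM with AZD and 23.7 ± 7.11 CPM with Ento+AZD (SD, n = 3 each). The libraries of both single agents lay below all DMSO libraries. Its log2 fold change was −0.48 ± 0.15 with Ento, short of a call (adjusted p = 0.063), and −0.44 ± 0.15 with AZD (adjusted p = 0.0458). The AZD call was lost without any one of 8 libraries (DMSO replicates 1 and 3, each Ento library, AZD replicates 2 and 3, Ento+AZD replicate 1; adjusted p up to 0.286). The H3K27 demethylases KDM6A and KDM6B were not called with any exposure, nor was KDM1A, whose means were 174 ± 19.9 CPM in the DMSO libraries and 152 ± 6.77 CPM in the Ento+AZD libraries (SD, n = 3; log2 fold change −0.18 ± 0.07, adjusted p = 0.0509).

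The acetyltransferases make the marks that BET proteins read. Among 9 members and 3 exposures they gave 1 call against DMSO, a lower one (20.8% of all genes with Ento+AZD). This was KAT7 with Ento+AZD, at −0.23 ± 0.09 (adjusted p = 0.044), lost without any one of 9 libraries (DMSO replicates 2 and 3, each Ento library, AZD replicates 2 and 3, Ento+AZD replicates 1 and 3; adjusted p up to 0.225) and with DESeq2. Exons of FAM117A overlap KAT7 on the opposite strand. FAM117A, with 22514 counts over all libraries, was called higher with Ento+AZD (0.40, adjusted p = 0.000961). Reads of these genes may be shared in unstranded counting, so the size of the KAT7 difference is uncertain. FAM117A moved in the opposite direction to KAT7. CREBBP and EP300, the paralogs that acetylate H3K27 at enhancers, had log2 fold changes of 0.19 ± 0.09 (adjusted p = 0.104) and 0.18 ± 0.10 (adjusted p = 0.177) with Ento+AZD. CREBBP held 180 ± 17.9 CPM with DMSO, 200 ± 31.3 CPM with Ento, 159 ± 19.7 CPM with AZD and 204 ± 14.2 CPM with Ento+AZD (SD, n = 3 each). KAT2A, KAT2B, KAT5, KAT6A, KAT6B and KAT8 were not called with any exposure.

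HDAC1 was the only member called in the same direction with all 3 exposures, a pattern that was not counted over all genes. This main deacetylase of the SIN3, NuRD and CoREST complexes (chr1:32292083-32333635, plus strand) had 391, 413 and 373 CPM with DMSO, 485, 532 and 487 CPM with Ento, 441, 525 and 461 CPM with AZD and 527, 519 and 521 CPM with Ento+AZD. All 9 exposed libraries exceeded all 3 DMSO libraries. The log2 fold changes were 0.35 ± 0.07 with Ento (adjusted p = 0.00794), 0.28 ± 0.07 with AZD (adjusted p = 0.0136) and 0.41 ± 0.07 with Ento+AZD (adjusted p = 0.000405). The Ento call was lost without Ento replicate 2 (adjusted p = 0.0549) and the AZD call without AZD replicate 2 or 3 (adjusted p up to 0.0966). Of all genes, 4.66% were called higher with Ento, 9.57% with AZD and 19.2% with Ento+AZD. HDAC2, which shares these complexes with HDAC1, moved in the other direction, from 138, 117 and 135 CPM with DMSO to 99.0, 82.2 and 105 CPM with Ento+AZD. With Ento it had 128, 97.1 and 133 CPM and with AZD 128, 98.3 and 118 CPM. HDAC2 fell by 0.45 on the log2 scale with Ento+AZD (SE 0.07, adjusted p = 0.000263) and was not called with Ento (−0.13 ± 0.07) or AZD (−0.18 ± 0.07). HDAC3 and HDAC8 were not called with any exposure.

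Among class II deacetylases, HDAC9 was called with Ento and not with AZD, and HDAC7 was called in opposite directions against DMSO. Ento and AZD were not tested against each other. HDAC9, a class IIa deacetylase (chr7:18086949-19002416, plus strand), had 11.8, 8.93 and 11.2 CPM with DMSO, 7.40, 2.97 and 4.22 CPM with Ento, 14.5, 11.1 and 14.8 CPM with AZD and 6.99, 3.62 and 4.57 CPM with Ento+AZD. Every library with Ento, alone or combined, lay below every library without it. Its log2 fold change was −1.17 ± 0.17 with Ento (adjusted p = 0.00111), 0.33 ± 0.16 with AZD (adjusted p = 0.148) and −1.10 ± 0.17 with Ento+AZD (adjusted p = 0.000241), and both calls passed without each library in turn. HDAC7, the class IIa deacetylase with the highest level per length here (chr12:47782722-47833132, minus strand), had 185, 217 and 191 CPM with DMSO, 225, 258 and 243 CPM with Ento, 151, 161 and 146 CPM with AZD and 206, 231 and 185 CPM with Ento+AZD. All Ento libraries lay above and all AZD libraries below the DMSO libraries, and the Ento+AZD libraries overlapped with DMSO. HDAC7 rose by 0.29 ± 0.07 with Ento (adjusted p = 0.02), fell by 0.37 with AZD (SE 0.07, adjusted p = 0.00298) and lay at 0.07 ± 0.07 with Ento+AZD (adjusted p = 0.465). The Ento call was lost without DMSO replicate 1 or any one Ento library (adjusted p up to 0.0958). Exons of SLC48A1 overlap HDAC7 on the opposite strand. SLC48A1, with 7408 counts over all libraries, was at −0.22 with Ento (adjusted p = 0.146) and 0.02 with AZD (adjusted p = 0.898). HDAC10, which acts on polyamines, had 45.8, 58.7 and 51.0 CPM with DMSO, 45.3, 72.9 and 46.9 CPM with Ento, 50.8, 72.3 and 52.3 CPM with AZD and 63.9, 80.0 and 65.5 CPM with Ento+AZD, with replicate 2 highest in every group. It rose by 0.43 ± 0.09 with Ento+AZD (adjusted p = 0.00162). HDAC6, the tubulin deacetylase, rose by 0.41 ± 0.12 (adjusted p = 0.011), a call lost without DMSO replicate 1 or 2 (adjusted p up to 0.0616). HDAC4, HDAC5 and HDAC11 were not called with any exposure.

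Sirtuins, the deacylases that use NAD, gave 2 calls among 7 members with Ento+AZD, both upward (19.2% of all genes were called higher). SIRT7, a nucleolar deacetylase of H3K18, had 28.9, 26.8 and 24.0 CPM with DMSO, 30.1, 38.3 and 29.4 CPM with Ento, 31.5, 39.9 and 35.4 CPM with AZD and 35.4, 37.7 and 34.5 CPM with Ento+AZD. No exposed library reached down to the DMSO range. SIRT7 rose by 0.43 ± 0.10 with Ento+AZD (adjusted p = 0.00347) and by 0.42 ± 0.10 with AZD (adjusted p = 0.00953), and was at 0.29 ± 0.10 with Ento (adjusted p = 0.0892). The AZD call was lost without AZD replicate 2 or 3 (adjusted p up to 0.0747). SIRT2, a mostly cytoplasmic tubulin deacetylase, was higher with Ento+AZD (0.30 ± 0.11, adjusted p = 0.0445), a call lost without any one of 10 libraries, all but DMSO replicate 1 and AZD replicate 1, with adjusted p up to 0.221, and with DESeq2. The mitochondrial SIRT3 was at −0.35 ± 0.13 with Ento (adjusted p = 0.109) and at −0.32 ± 0.13 with AZD (adjusted p = 0.0922).

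**Figure D4:**
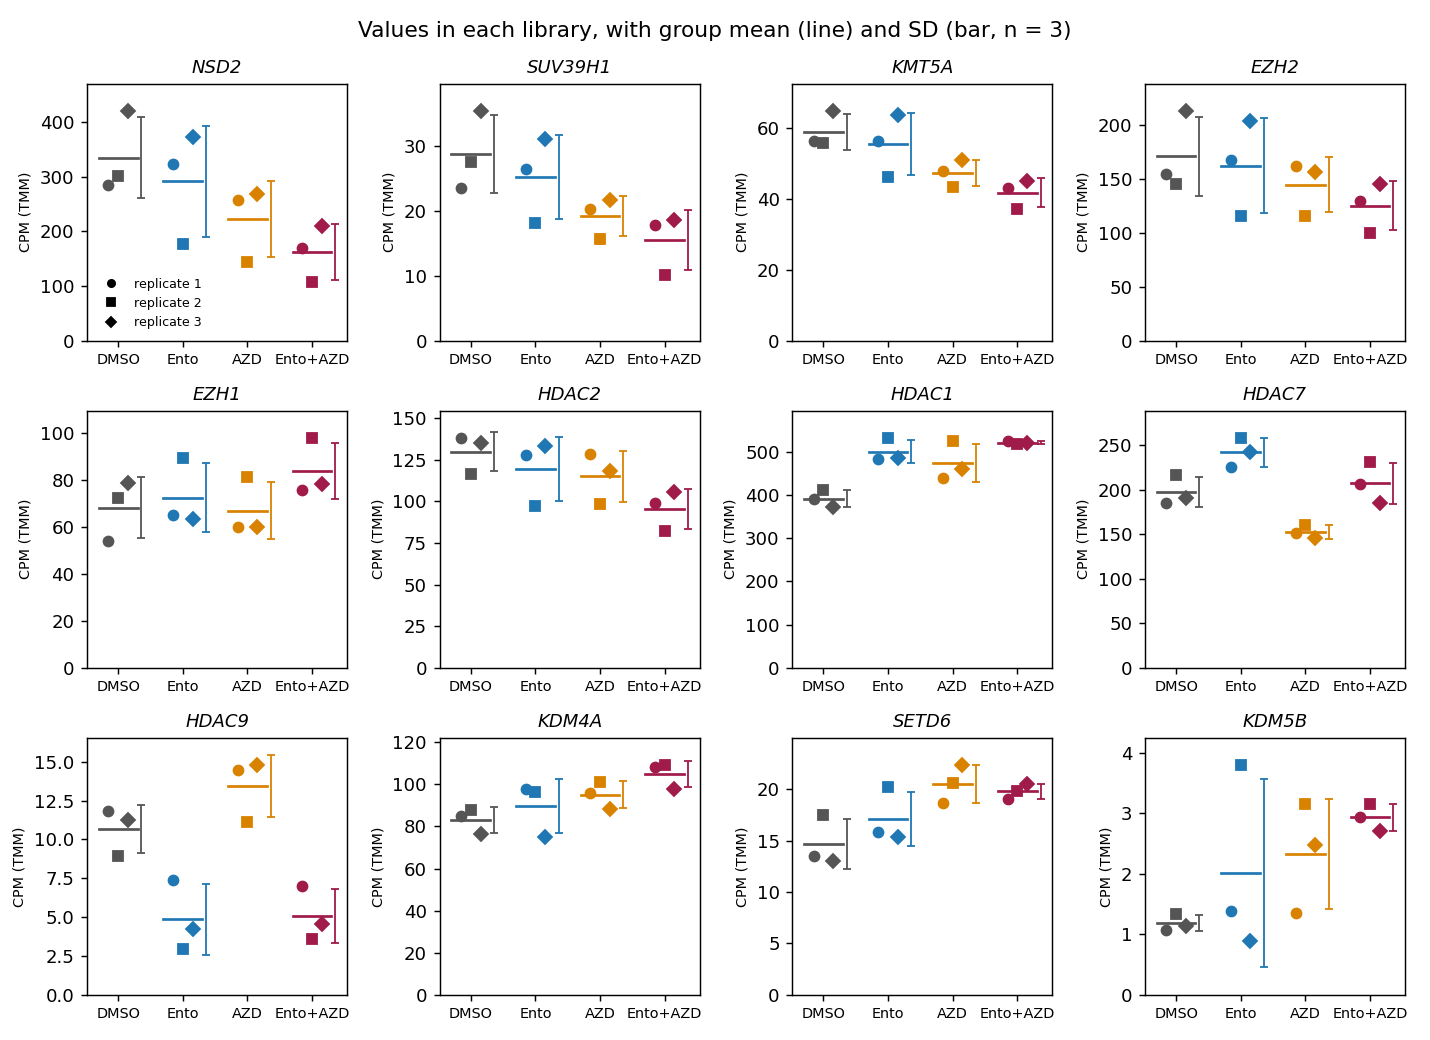
CPM of 12 members in each of the 12 libraries, with symbols for the replicate numbers, a line for the group mean and a bar for the SD (n = 3). NSD2 and SUV39H1 step down from DMSO to AZD and Ento+AZD with replicate 2 lowest in every exposed group, whereas HDAC9 is low with Ento and Ento+AZD and HDAC7 moves up with Ento and down with AZD.

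The 29 members called with Ento+AZD were compared with their values under the single agents, which share the DMSO libraries with it. Of the 13 higher members, with a median log2 fold change of 0.35, 1 was called with Ento and 4 with AZD, and 9 were called with neither. Of the 16 lower members, with a median of −0.40, 1 was called with Ento (HDAC9) and 6 with AZD, and again 9 were called with neither. With each single agent, 11 of the 13 higher and 14 of the 16 lower members had the same sign as with Ento+AZD. These members were picked by their Ento+AZD call against the same DMSO libraries, which favours a shared sign. The counts were not made over all genes, so they do not set the enzymes apart. The higher members had medians of 0.16 with Ento and 0.16 with AZD, the lower ones −0.12 and −0.24. A call with neither agent alone thus does not show that a member changed only with the combination. To ask what the second agent added, Ento+AZD was compared with each single agent. Relative to Ento alone, 3 members were higher (8.27% of all genes) and 9 lower (12.2%). NSD2 (−0.83 ± 0.14, adjusted p = 0.0011), SUV39H1 (−0.71 ± 0.14, adjusted p = 0.0041), KMT5A (−0.40 ± 0.08, adjusted p = 0.00327) and EED (−0.45 ± 0.10, adjusted p = 0.00514) were lower and passed without each library in turn. HDAC2 (−0.32 ± 0.07, adjusted p = 0.007) was lower too, but not without Ento replicate 3 or Ento+AZD replicate 1, and KDM2B (−0.28 ± 0.07, adjusted p = 0.0163) not without Ento replicate 1 or Ento+AZD replicate 3. Leaving out replicate 1 or 3 of either group removed the call of EZH2 (−0.36 ± 0.09, adjusted p = 0.0158) and that of HDAC10, which was higher (0.37 ± 0.09, adjusted p = 0.00963). HDAC6 was higher (0.44 ± 0.12, adjusted p = 0.0156) except without replicate 1 or 3 of Ento or replicate 1 or 2 of Ento+AZD. KDM4A, EHMT2 and HDAC7 were called at 0.23, −0.23 and −0.23, and each was lost without any single Ento library, AZD replicate 2 or Ento+AZD replicate 1 or 3, the last 2 also without AZD replicate 3 and EHMT2 also without Ento+AZD replicate 2. Relative to AZD alone, 2 members were higher (5.85% of all genes) and 4 lower (6.04%). HDAC7 was higher by 0.44 ± 0.07 (adjusted p = 0.00241) and HDAC9 lower by more than 2-fold (0.422% of all genes), at −1.44 ± 0.17 (adjusted p = 0.000423), and these 2 calls passed without each library in turn. CREBBP was higher by 0.37 ± 0.09 (adjusted p = 0.0163), with 145, 181 and 150 CPM in the AZD libraries and 199, 220 and 194 CPM with Ento+AZD, and this was lost without any one of 4 libraries (AZD replicates 1 and 2, Ento+AZD replicates 1 and 3; adjusted p up to 0.101). NSD2 (−0.46 ± 0.14, adjusted p = 0.0416), HDAC2 (−0.27 ± 0.07, adjusted p = 0.0285) and SUV39H2 (−0.36 ± 0.10, adjusted p = 0.0339) were also lower than with AZD alone. Each of these calls was lost without AZD replicate 1 or 2 or any single Ento+AZD library, that of SUV39H2 also without Ento replicate 1, and that of NSD2 also without Ento replicate 1 or 3 or AZD replicate 3.

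The interaction of the agents asks whether the difference with both departs from the sum of the log2 fold changes with each. edgeR called none of the 73 members and none of all genes (0% in either direction), while 1652 genes (9.81%) and 6 members had an unadjusted p under 0.05. DESeq2 called 8 genes and no member. KDM7A had the smallest p of the members, with an interaction of 0.66 ± 0.21 on the log2 scale (unadjusted p = 0.0075, adjusted p = 0.444). For HDAC9 the interaction was −0.27 ± 0.25 and for HDAC7 0.15 ± 0.10, neither called (adjusted p = 0.746 and 0.64). An interaction that misses the threshold does not show that the log2 fold changes add.

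Transcripts of the subunits that accompany these enzymes were examined next. With Ento+AZD, 19.2% of all genes were called higher and 20.8% lower, and most counts below lie near these shares. Of 16 partners of methyltransferases, 6 were lower and none higher, with a median log2 fold change of −0.15 over the list and 0.01 over all genes. The lower ones were led by PHF19, a PRC2 accessory subunit that binds H3K36 methylation, with 69.9 ± 22.1 CPM in the DMSO libraries and 24.4 ± 7.81 CPM in the Ento+AZD libraries (SD, n = 3; log2 fold change −1.54 ± 0.14, adjusted p = 5.12e-06). It was also called lower with Ento (−0.55, adjusted p = 0.0193) and AZD (−0.82, adjusted p = 0.00119). MTF2, its paralog, had −0.48 (adjusted p = 0.00257), the COMPASS subunit DPY30 −0.40 (adjusted p = 0.00741) and the histone chaperone RBBP7 −0.32 (adjusted p = 0.00811). Of 32 partners of acetyltransferases and deacetylases, 7 were higher and 7 lower, with a median of 0.03. Among these, MSL3 (0.63, adjusted p = 0.000146), SIN3B (0.37, adjusted p = 0.00252) and TADA2B (0.41, adjusted p = 0.00674) were higher and SAP30, a SIN3 subunit, was lower (−0.51, adjusted p = 0.00276). Of 24 further histone-modifying enzymes outside the symbol families, 4 were higher and 5 lower, with a median of 0.04. PHF2, an H3K9 demethylase, had 45.6 ± 0.817 CPM in the DMSO libraries, 25.5 ± 1.299 CPM with AZD and 23.3 ± 0.313 CPM with Ento+AZD (SD, n = 3). Its log2 fold change with Ento+AZD was −0.97 ± 0.08 (adjusted p = 3.95e-06). HAT1, which acetylates newly made H4 (−0.57, adjusted p = 0.000283), SMYD2 (−0.52, adjusted p = 0.00153) and JMJD6 (−0.40, adjusted p = 0.005) were lower as well.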

How the data were processed

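Polyadenylated RNA of SU-DHL-4 was sequenced in 4 groups of 3 libraries. The authors trimmed the reads with CutAdapt through Trim Galore, aligned them to GRCh38.p13 and counted them per gene with Rsubread. The use of strand and of reads with several matches is not given in the sources used here, and the submitters' processing notes also list hg19. The authors deposited raw whole-number counts without normalization. A second deposited table of log2 normalized values was not used.

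Genes passing filterByExpr by group (minimum count 10, minimum total 15) were normalized by TMM and fitted with edgeR 4.0.16 (R 4.3.3, limma 3.58.1), following the model of the study, in which exposure and batch are covariates without an intercept. The replicate number stood for the batch. Each contrast was given a quasi-likelihood test, with Benjamini-Hochberg adjustment over 16835 genes, and its standard error was obtained from the log2 fold change and F. DESeq2 1.42.0, other size factors, no filter, only the groups compared, no replicate block and leaving out each library were alternatives. The script was tested on simulated data in which few genes changed, in the Ento+AZD group only. That test does not cover a response as broad as the one seen with Ento+AZD.

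Replicate numbers come from the labels, and the study's model has a batch term. Deviations from group means correlated at 0.213 to 0.703 for the 18 pairs of libraries with the same number and at −0.627 to 0.325 for the 36 others. Centring each group on its mean pushes the second range down when the first is positive, and the ranges overlap. The numbers were kept as a block to follow the study's model. Libraries of 1 group differed by more than sampling noise (chi-square per degree of freedom 9.06 to 54.1). If the replicates were not separate cultures, p-values measure technical spread only.

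Members and lists were chosen with earlier results of these data known. Values in every library are given for the 6 called members with the smallest adjusted p in each direction and exposure and for those changed over 2-fold; of each related list the 4 genes with the smallest adjusted p are named, and of the proliferation genes 2. CREBBP was added after its values were seen. Coordinates are of GENCODE v44. By that annotation 38 members overlap exons of a gene on the opposite strand, among them SETD6, HDAC7, HDAC2, HDAC10, KDM4A, SUV39H1, EHMT1, EHMT2, EED, NSD1, NSD3, KMT2B, KAT7, SIRT2, SUV39H2, SETD1A, KMT2E, KDM2B and SIRT3, and their counts are uncertain to that extent. Intervals and SDs cover these libraries only. A further B cell marker is not reported here.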

Additional observations from a re-analysis of the deposited data

How the results depend on the processing

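The numbers of members called (4 with Ento, 13 with AZD, 29 with Ento+AZD, 12 for Ento+AZD against Ento, 6 against AZD and 0 for the interaction) stayed within 1.5 times with DESeq2's size factors, total counts only and DESeq2. Without the replicate block edgeR called 0, 0, 8, 0, 0 and 0 members, and 7, 13, 22, 12, 5 and 2 had an unadjusted p under 0.05. Same-numbered libraries deviated together and the study's model has a batch term, so the block was kept. With only the groups compared, 19 members were called against Ento and 12 against AZD. Without the filter on low counts 1 member, KDM7A, was called for the interaction. Shares over all genes are not given for these alternatives, so the counts describe the stability of the calls only.

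Leaving out 1 library gave 1 to 6 calls with Ento, 3 to 17 with AZD, 17 to 28 with Ento+AZD, 5 to 16 against Ento, 2 to 11 against AZD and 0 for the interaction. The libraries that moved a count by over 1.5 times were Ento replicates 1, 2 and 3 for Ento (2, 1 and 2 calls), AZD replicates 2 and 3 for AZD (6 and 3 calls) and Ento+AZD replicates 1 and 3 for Ento+AZD (17 and 18 calls). Against Ento they were Ento replicates 1 and 3 (6 and 5 calls) and Ento+AZD replicates 1 and 3 (5 and 6 calls). Against AZD they were AZD replicates 1 and 2 and Ento+AZD replicates 1 and 3 (2 calls each), Ento+AZD replicate 2 (3 calls) and DMSO replicates 1, 2 and 3 (10, 10 and 11 calls). Fewer libraries were fitted in each, and any further cause was not tested.

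Over the 64 called differences of single members and 18 alternatives each, 880 of 1152 values stayed called, 272 lost the call and 0 changed direction. The block accounted for 56 of these losses and left-out libraries for 181. DESeq2 lost 4 calls (KAT7, KDM4D, SIRT2 and SUV39H2 with Ento+AZD), DESeq2's size factors lost 1 (EHMT1 with Ento), total counts lost 6 and no filter 7. The 6 lost with total counts were all higher calls, which thus depend on the normalization. They were EHMT1 with Ento, SETD2 and SETD7 with AZD, and EZH1, SETD1A and SIRT2 with Ento+AZD. Fitting only the groups compared lost 17: EHMT1 and HDAC7 with Ento, EHMT2, HDAC1, KMT2E, SETD2 and SETD7 with AZD, and EHMT2, EZH1, KAT7, KDM4D, KMT2B, NSD3, SETD1A, SIRT2, SUV39H2 and SUZ12 with Ento+AZD. The 7 that passed under every alternative were HDAC1, HDAC9, KMT5A, KMT5C, NSD2, SIRT7 and SUV39H1 with Ento+AZD. Among the 73 members in the fit, depth limits KDM5B, KDM4D, SIRT4 and HDAC11 most, with at most 74, 72, 22 and 15 counts in a library.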
